A study of Mus musculus with 52 samples.

Results

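The high mobility group (HMG) genes encode small, abundant chromatin proteins. 8 of them were followed here among the 49466 genes of the count tables. Hmgn1, Hmgn2, Hmgn3 and Hmgn5 encode nucleosome-binding HMGN proteins, Hmga1 encodes an AT-hook protein, and Hmgb1, Hmgb2 and Hmgb3 encode proteins with HMG boxes. The genes were taken by symbol, and all 8 symbols were present in both tables. They were selected on earlier results of these data, in which the level of Hmgn2 varied between founder cells and little between the daughters of 1 founder. Its differences between founders and between daughters are therefore given as a description, without a test.

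The cells were daughters of mouse BFU-E, the burst-forming unit of the erythroid lineage, a progenitor committed to making red cells. BFU-E were sorted from the livers of C57/Bl6J embryos at embryonic day 14.5 and placed 1 per well. Wells received 100 nM dexamethasone, a synthetic glucocorticoid, or were left untreated, and after 16 h the 2 daughters of a founder that had divided were sequenced as separate libraries. There were 13 dexamethasone pairs and 13 untreated pairs, 52 libraries in all. The comparisons below used 13 dexamethasone pairs and 10 untreated pairs, 46 libraries, because 3 untreated pairs held a library under 100000 counts. Because no animal is named, wells of 1 embryo cannot be recognised. Each p-value between founders reflects only how founder wells differ from each other. Each p-value for a slope between the 2 daughters reflects only how their differences vary from well to well.

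HMGN proteins bind the nucleosome core and compete with linker histone, which loosens chromatin. HMGA proteins bind the minor groove of AT-rich DNA through AT-hooks, and are abundant in fetal and other immature cells. HMGB proteins bend DNA through their HMG boxes, and Hmgb1 protein also acts as an alarm signal outside the cell. Hmgb2 is known as a gene of dividing cells, and Hmgb3 is known from mouse work as a gene of early blood progenitors. In erythroid maturation chromatin condenses while globin transcripts accumulate.

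The promoters of the genes on which the results turn are shown first, from RefSeq for build GRCm38.p6, 250 bases before to 50 bases after an annotated start. Hmgn2 and Hmgb1 are shown because their levels moved with the lineage of the founder, and Hmgb2 because it is known as a gene of dividing cells. Hmgb1 has 2 annotated starts. Capitals mark matches on either strand to CCAAT, the core of the box bound by NF-Y, to TTTGAA, the cell cycle homology region, to CACGTG, an E-box bound by Myc and USF proteins, and to GATAA, the core of the site bound by Gata1. No match overlapped another in these windows.
Hmgn2, chr4:133967942-133968241, minus strand: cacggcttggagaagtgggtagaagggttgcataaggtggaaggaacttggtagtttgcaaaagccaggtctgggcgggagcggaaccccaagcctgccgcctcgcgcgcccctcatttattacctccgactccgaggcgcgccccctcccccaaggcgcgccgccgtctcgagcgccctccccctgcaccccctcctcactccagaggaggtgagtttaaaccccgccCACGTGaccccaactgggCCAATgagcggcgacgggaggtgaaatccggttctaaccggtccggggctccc
Hmgb1, chr5:149051567-149051866, minus strand: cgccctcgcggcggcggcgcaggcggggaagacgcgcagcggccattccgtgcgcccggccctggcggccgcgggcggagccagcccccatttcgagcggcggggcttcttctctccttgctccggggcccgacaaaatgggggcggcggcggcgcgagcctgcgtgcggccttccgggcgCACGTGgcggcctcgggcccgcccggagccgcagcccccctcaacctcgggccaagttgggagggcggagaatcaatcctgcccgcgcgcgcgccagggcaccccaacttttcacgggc
Hmgb1, chr5:149053008-149053307, minus strand: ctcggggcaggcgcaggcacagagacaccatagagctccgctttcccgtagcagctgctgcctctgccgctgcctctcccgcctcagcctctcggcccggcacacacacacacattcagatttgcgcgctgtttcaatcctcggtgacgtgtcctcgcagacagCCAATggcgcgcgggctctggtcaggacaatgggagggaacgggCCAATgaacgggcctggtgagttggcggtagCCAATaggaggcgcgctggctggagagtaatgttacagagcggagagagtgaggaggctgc
Hmgb2, chr8:57511593-57511892, plus strand: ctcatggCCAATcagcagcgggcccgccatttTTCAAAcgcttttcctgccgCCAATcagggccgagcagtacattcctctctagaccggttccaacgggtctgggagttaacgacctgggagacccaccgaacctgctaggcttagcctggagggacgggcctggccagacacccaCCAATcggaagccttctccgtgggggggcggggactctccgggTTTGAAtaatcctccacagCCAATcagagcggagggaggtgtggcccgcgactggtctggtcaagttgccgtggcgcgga

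The Hmgn2 window held 1 CCAAT box and 1 CACGTG element. The upstream Hmgb1 window held 3 CCAAT boxes, and the downstream Hmgb1 window held 1 CACGTG element and 0 CCAAT boxes. The Hmgb2 window held 4 CCAAT boxes and 2 TTTGAA elements. These elements were not particular to Hmgb2, since the Hmgb3 window, which is not shown, held 3 CCAAT boxes and 1 TTTGAA element. CCAAT was found in 37.4% of all 32851 promoter windows of the same length, GATAA in 25.4%, TTTGAA in 17.9% and CACGTG in 7.2%. GATAA was in 0 of the 9 windows that RefSeq gave for 7 of the 8 genes. All 9 windows were rich in CpG dinucleotides, with 20 to 45 each, against a median of 7 over all promoter windows. These matches describe the letters of the windows and do not show a bound site.

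The used libraries held 210383 to 5606500 counts, with a median of 2577701 in dexamethasone libraries and 2805170.5 in untreated libraries. Gata1, a defining erythroid factor, reached 10 CPM, that is counts scaled to the library total, in 21 of 26 dexamethasone libraries and 16 of 20 untreated libraries, and 40 of 46 libraries carried at least 3 erythroid markers at that level. Mpo, which encodes a granule enzyme of the myeloid lineage, reached 10 CPM in 15 of 26 dexamethasone libraries and 11 of 20 untreated libraries. At least 3 of 19 myeloid markers were at that level in 9 dexamethasone libraries and 6 untreated libraries. These lay in 5 dexamethasone pairs and 3 untreated pairs. Dexamethasone pair 12 was among them only through cell 1, with 6 myeloid markers beside 0 in cell 2. A share of the sorted cells thus carried transcripts that the label BFU-E does not cover. At least 3 megakaryocyte markers were found in 11 libraries and at least 3 stem cell markers in 6, while 0 libraries carried 3 markers of mast cells, macrophages, lymphocytes, hepatocytes or endothelium. Cell 1 of dexamethasone pair 12 stood apart, with 210383 counts and 3886 genes detected, the lowest of the used libraries. In that cell Hmgn1 was at 3636 CPM and Hmgn2 at 3128 CPM, while Hmgb1 was at 38.03 CPM, Hmgb2 at 9.51 CPM and Hmgb3 at 0 counts, so results that it moves are also given without that pair.

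Together the 8 genes took 0.169% to 0.682% of the counts of a dexamethasone library, with a median of 0.273%, and 0.127% to 0.421% of an untreated library, with a median of 0.222%. The highest share was in cell 1 of dexamethasone pair 12. Per kilobase of exon, Hmgn2 had the highest median level over the 46 libraries, 192 CPM per kilobase. Hmgb3 followed at 151, Hmgb1 at 120, Hmgn1 at 116, Hmga1 at 79.4, Hmgb2 at 75.2 and Hmgn5 at 25.1 CPM per kilobase, and Hmgn3 had a median of 0. Hmgn2 was the highest of the 8 per kilobase in 15 dexamethasone and 10 untreated libraries, Hmgb3 in 9 dexamethasone and 9 untreated libraries, and Hmgn1 in 2 dexamethasone libraries and 1 untreated library. Over 23 founders, the neighbours in this order from Hmgn2 down to Hmgb2 differed per kilobase by less than the SD of their difference. Hmgb2 was above Hmgn5 in 21 of 23 founders and Hmgn5 above Hmgn3 in 20 of 23.

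**Figure D1:**
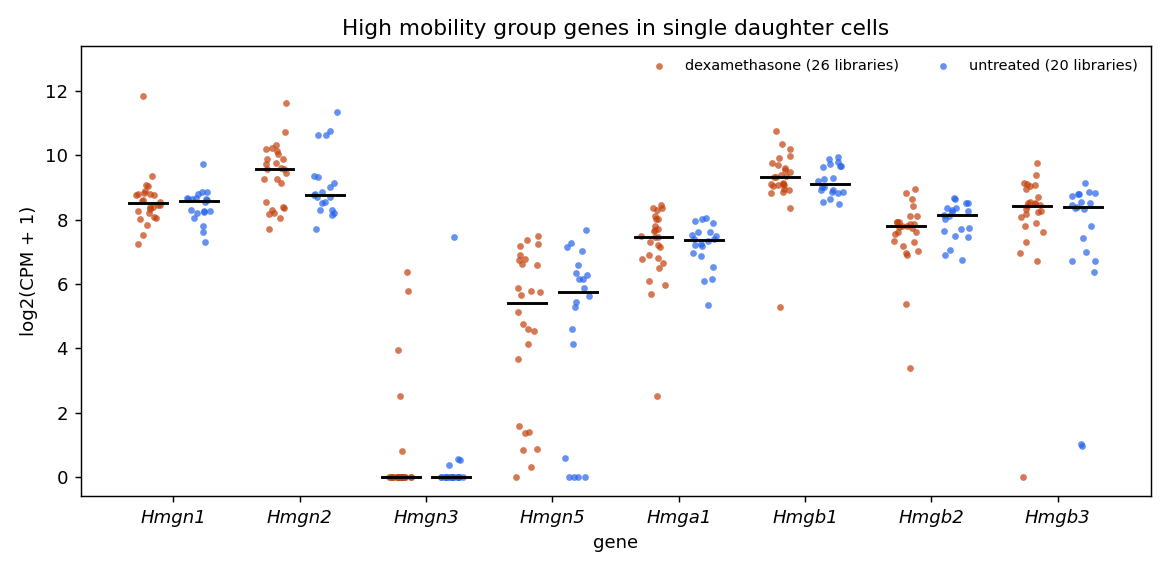
Level of each gene in every library used, as log2(CPM + 1), for 26 dexamethasone libraries (left, orange) and 20 untreated libraries (right, blue). Black lines are medians, and Hmgn3 lies at 0 in most libraries while Hmgn5 runs from 0 to 7.69.

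Of the HMGN genes, Hmgn2 (chr4:133964738-133968650, GRCm38, minus strand) had founder means of 237, 714 and 2091 CPM in dexamethasone founders (lowest, median and highest of 13) and 262, 434 and 2160.5 CPM in untreated founders (of 10). Hmgn1 (chr16:96120618-96127729, minus strand) had 258, 384 and 2046 CPM in dexamethasone founders and 211, 355 and 615 CPM in untreated founders. The dexamethasone maximum of Hmgn1 was pair 12, and its other dexamethasone founders lay at 524 CPM or below. Hmgn5 (chrX:109004534-109013404, minus strand), whose protein carries a long acidic tail, had 0.817, 71.4 and 134 CPM in dexamethasone founders and 0, 53.1 and 143 CPM in untreated founders. It was at 0 counts in 1 dexamethasone library and 4 untreated libraries, which allows up to 0.914 to 14.3 CPM there when 3 counts are taken as the limit. The groups overlapped over most of their range for all 3 genes.

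Hmgn3 (chr9:83109948-83146685, minus strand) had counts in 9 of 46 libraries and reached 10 CPM in 4. These were cell 1 of dexamethasone pair 6 at 53.4 CPM, cell 2 of dexamethasone pair 8 at 82.5 CPM, cell 2 of dexamethasone pair 10 at 14.5 CPM and cell 2 of untreated pair 9 at 176 CPM. The sister of each of the 4 had 0 counts. All 4 pairs held a myeloid-marked library. In the 37 libraries at 0, a limit of 3 counts allows 0.535 to 7.41 CPM, and counts and limits here cover counting error only. Hmgn3 passed no filter on low counts, so the tests below concern the other 7 genes.

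Hmga1 (chr17:27556497-27563674, plus strand) had founder means of 27.7, 152 and 340 CPM (lowest, median and highest) in dexamethasone founders and 53.4, 164 and 262 CPM in untreated founders. Hmgb1 (chr5:149046702-149184489, minus strand) had 340, 674 and 1139 CPM in dexamethasone founders and 414, 523 and 938 CPM in untreated founders. Hmgb2 (chr8:57511907-57515999, plus strand) had 92.5, 215 and 477 CPM in dexamethasone founders and 189, 248 and 345 CPM in untreated founders. Its untreated founders lay wholly inside the range of the dexamethasone founders. Hmgb3 (chrX:71555918-71560676, plus strand) had 78.0, 348 and 769 CPM in dexamethasone founders and 0.981, 321 and 449 CPM in untreated founders. Its low values were in pair 12 of the dexamethasone founders and in pair 10 of the untreated founders. Both pairs had a myeloid-marked library, in pair 12 only cell 1.

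Sister cells carried nearly the same level of Hmgn2 (description). The median fold between sisters was 1.26 in 13 dexamethasone pairs and 1.15 in 10 untreated pairs, and 10 dexamethasone pairs and 9 untreated pairs were within 1.5-fold. The largest fold in dexamethasone pairs, 2.96, was in pair 12, with 3128 and 1055 CPM, and the largest in untreated pairs, 1.53, was in pair 9, with 2611 and 1710 CPM. The mean absolute difference of log2(CPM + 1) was 0.36 ± 0.34 between sisters (SD, n = 23 pairs) and 1.11 between cells of different founders of the same treatment. Founders held a share of 0.877 of the variance of Hmgn2, a share above that of 99.8% of 8015 genes, where the median gene had 0.158. The share was 0.922 without dexamethasone pair 12, 0.822 among founders of the same plate column set and 0.873 without the 8 pairs with a myeloid-marked library. Without those 8 pairs the difference between sisters was 0.29 and that between founders 0.74, so the gap between them was 0.46, against 0.75 over all 23 pairs.

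**Figure D2:**
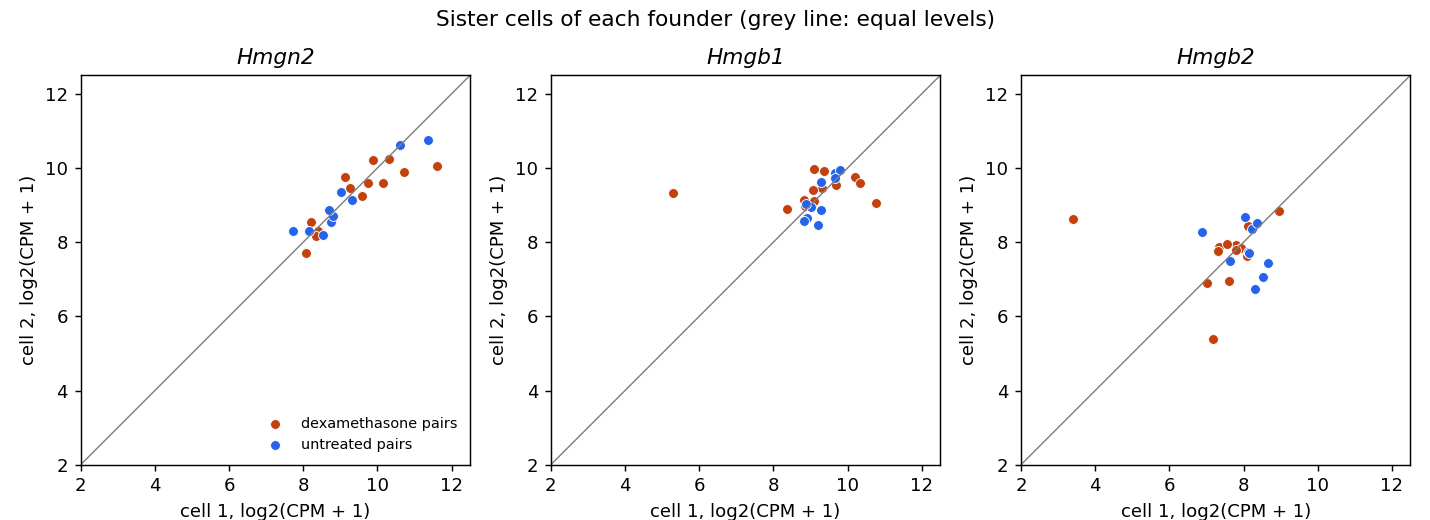
Level in cell 2 against cell 1 of each founder for Hmgn2, Hmgb1 and Hmgb2, as log2(CPM + 1), with dexamethasone pairs in orange and untreated pairs in blue. Hmgn2 lies near the grey line of equal levels in most pairs, with 19 of 23 within 1.5-fold, while Hmgb2 spreads around it. Dexamethasone pair 12 lies off the line in all 3 panels, by 2.96-fold for Hmgn2, 16.5-fold for Hmgb1 and 37.7-fold for Hmgb2.

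The values of the other genes between sisters are also a description, since the choice of genes rested on this contrast. The median fold between sisters over all 23 pairs was 1.25 for Hmgn2, close to 1.24 for Hmgb1 and above 1.2 for Hmgb3, while it was 1.35 for Hmgb2, 1.45 for Hmga1, 1.47 for Hmgn1 and 3.10 for Hmgn5. Hmgb1 sisters were thus about as alike as those of Hmgn2 in the median pair. For Hmgb3 this held in dexamethasone pairs, with a median fold of 1.17, but not in untreated pairs, at 1.465 beside 1.15 for Hmgn2. The mean differences below include dexamethasone pair 12, where Hmgb3 was at 0 counts in cell 1 and 156 CPM in cell 2. Without that pair the mean difference between sisters was 0.39 for Hmgb1 and 0.53 for Hmgb3, still above 0.31 for Hmgn2. Hmgb3 differed by 0.83 ± 1.51 between sisters and by 1.71 between founders, with a founder share of variance of 0.667, or 0.898 without dexamethasone pair 12. Without the pairs with a myeloid-marked library its share was 0.251, with differences of 0.57 between sisters and 0.70 between founders. Hmga1 differed by 0.63 ± 0.69 between sisters and 1.07 between founders, with a share of 0.608. Hmgb1 differed by 0.55 ± 0.84 between sisters and 0.76 between founders, with a share of 0.212, or 0.460 without dexamethasone pair 12. In Hmgb1 the pair 12 sisters had 38.03 and 642 CPM, a 16.5-fold difference, while 9 of 13 dexamethasone pairs and 9 of 10 untreated pairs were within 1.5-fold. Hmgn1 differed by 0.67 ± 0.63 between sisters and 0.69 between founders, and its share was 0.168.

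Hmgb2 differed by 0.77 ± 1.11 between sisters and by 0.90 between founders, with a founder share of variance of -0.0673. Without dexamethasone pair 12 the differences were 0.57 and 0.72. The share was then 0.296, above that of 70.5% of 8015 genes. In untreated pair 11 the sisters had 317 and 107 CPM of Hmgb2, a 2.95-fold difference, the largest among untreated pairs. Hmgn5 differed by 2.41 ± 2.14 between sisters and 2.92 between founders, and sisters of 1 founder could be at 0 and at 94.8 CPM, as in untreated pair 11.

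**Figure D3:**
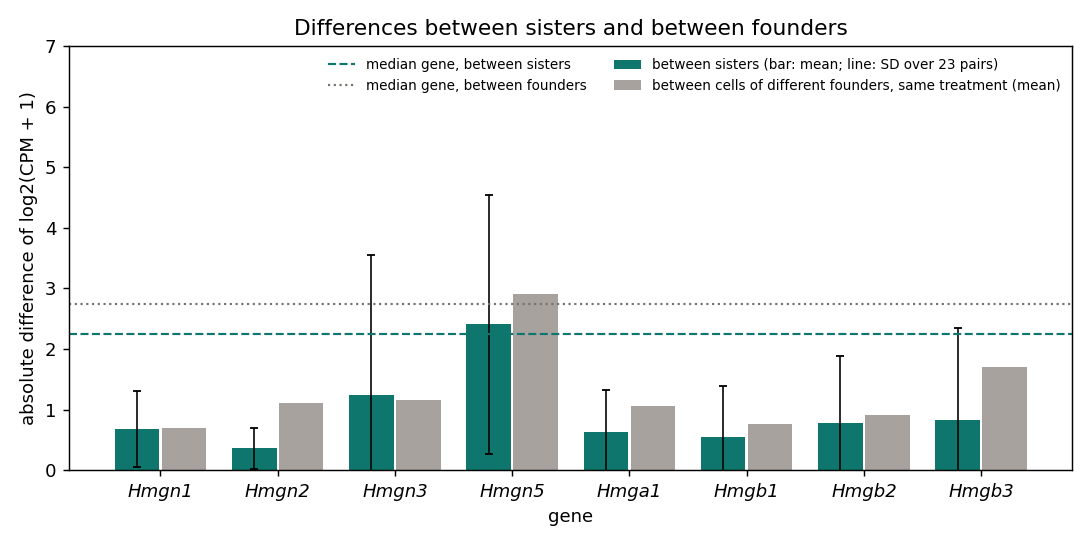
Mean absolute difference of log2(CPM + 1) between sisters (green, with the SD over 23 pairs) and between cells of different founders of the same treatment (grey), with the median over 8015 genes as dashed and dotted lines. Hmgn2 has the smallest mean difference between sisters of the 8 genes, 0.36, beside 1.11 between founders, while the 2 bars of Hmgn1 and of Hmgb2 are nearly level.

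Each founder was given a lineage score, the mean log2(CPM + 1) of 18 erythroid genes minus that of 19 myeloid genes, in which no HMG gene takes part. It ran from -3.64 to 6.38 in dexamethasone founders, with a median of 4.61. In untreated founders it ran from -4.78 to 6.52, with a median of 5.41. Not all 8 pairs with a myeloid-marked library had scores under 0. Dexamethasone pair 12 was at 2.05, dexamethasone pair 8 at 2.60 and untreated pair 5 at 3.92. Hmgb1 fell as the score rose, by 0.12 ± 0.02 on the log2 scale per unit of score (SE; edgeR quasi-likelihood test, adjusted p = 0.00191, n = 23 founders). It was the only one of the 6 tested genes other than Hmgn2 that was called, where 3.55% of 7190 genes were called, 137 higher and 118 lower (1.64%). Limma called 1192 genes higher and 96 lower. The 5 founders with a score under 0 had 784 to 1139 CPM of Hmgb1, and the 7 founders with the highest scores, 5.77 to 6.52, had 404 to 602 CPM. Hmgb1 remained called with each of the 23 pairs left out in turn (adjusted p from 0.000903 to 0.0109).

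The Hmgb1 slope had the same sign in both treatments, -0.12 ± 0.04 in dexamethasone founders and -0.13 ± 0.03 in untreated founders, and the test of the difference between these slopes gave 0.01 ± 0.05 (adjusted p = 0.985). Within plate columns 1 to 4 the slope was -0.10 ± 0.03 (adjusted p = 0.0714) and within plate columns 5 to 7 it was -0.09 ± 0.05 (adjusted p = 0.805), and with the column set as a covariate it was -0.10 ± 0.02 (adjusted p = 0.00401). By limma on log2 values, a fit in which the median slope of all genes was 0.13, the Hmgb1 slope was -0.08 ± 0.03 and not called (adjusted p = 0.0999), but without dexamethasone pair 12 limma gave -0.09 ± 0.02 (adjusted p = 0.00700). Among the 15 pairs without a myeloid-marked library the slope was -0.35 ± 0.09 and not called (adjusted p = 0.297), where the score ran from 2.88 to 6.52. The number of genes detected rose with the lineage score over the 23 founders (r = 0.456, and 0.526 without dexamethasone pair 12). Its correlation with Hmgb1 was 0.124 over all founders and -0.537 without dexamethasone pair 12, which had the lowest Hmgb1 level. The part of gene detection in the Hmgb1 slope was not tested.

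Hmgn2, as a description, fell by 0.24 ± 0.03 per unit of lineage score, with r = -0.83 and rho = -0.86 over 23 founders. In the pairs with a myeloid-marked library its founder means were 812 to 2091 CPM in 5 dexamethasone pairs and 601 to 2160.5 CPM in 3 untreated pairs. In the other pairs they were 237 to 1062 CPM in 8 dexamethasone pairs and 262 to 584 CPM in 7 untreated pairs. The untreated ranges nearly met, at 601 CPM in pair 5, which had a myeloid-marked library, and 584 CPM in pair 11, which had none. The dexamethasone ranges overlapped, through pair 11 at 1062 CPM and pair 8 at 812 CPM. Among the 15 pairs without a myeloid-marked library the slope was -0.56 ± 0.13, also as a description. The lowest score among them was 2.88, in dexamethasone pair 11. Its cells had 8 and 6 erythroid markers, and 2 myeloid markers each. The part of that pair and of the plate columns in the slope of the 15 pairs was not tested. Hmgn2 also moved with the number of genes detected (r = -0.733, and -0.694 without dexamethasone pair 12). Its median was 1062 CPM in dexamethasone founders and 1080 CPM in untreated founders of plate columns 5 to 7, against 510 CPM in dexamethasone founders and 366 CPM in untreated founders of columns 1 to 4, and its slope with the set as a covariate was -0.20 ± 0.02. The part of gene detection in the Hmgn2 slope was not tested.

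**Figure D4:**
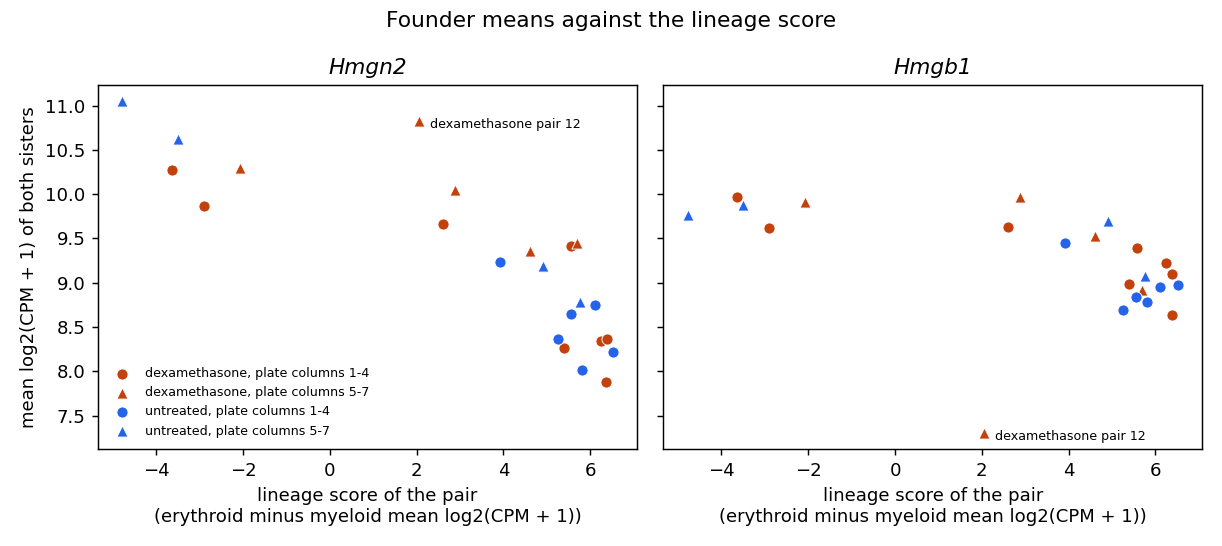
Mean log2(CPM + 1) of both sisters against the lineage score of the pair for Hmgn2 and Hmgb1 in 23 founders, with dexamethasone in orange, untreated in blue, and plate columns 1 to 4 as circles and 5 to 7 as triangles. Both genes are lower in founders with high scores, Hmgn2 over a wider range, and dexamethasone pair 12, at a score of 2.05, has the highest Hmgn2 level of the dexamethasone founders, 10.83, below untreated pair 9 at 11.05, and the lowest Hmgb1 level of all founders, 7.31.

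The remaining genes passed no test against lineage in edgeR. Hmgb3 had the opposite sign, with a slope of 0.15 ± 0.06 (adjusted p = 0.240), and limma called it at 0.28 ± 0.08 (adjusted p = 0.0254), 0.15 above the median slope of all genes in that fit. The lowest Hmgb3 founders were untreated pair 10 at 0.981 CPM and dexamethasone pair 12 at 78.0 CPM. Pairs with a myeloid-marked library held 78.0 to 521 CPM with dexamethasone and 0.981 to 316 CPM untreated. Pairs without one held 216 to 769 CPM with dexamethasone and 234 to 449 CPM untreated, so the ranges overlapped in both treatments. Slopes were -0.07 ± 0.03 for Hmgn1, -0.06 ± 0.03 for Hmgb2, 0.01 ± 0.05 for Hmga1 and 0.04 ± 0.11 for Hmgn5, with adjusted p from 0.2997 to 0.967. Across founders Hmgn2 and Hmgb1 went together (rho = 0.617, n = 23), with r = 0.331 over all founders and 0.870 without dexamethasone pair 12. Hmgn2 and Hmgb3 went in opposite directions (r = -0.543, and -0.452 without that pair).

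Globin level was the mean log2(CPM + 1) of 4 adult globin genes. None of the 6 tested genes other than Hmgn2 was called on it, and 0.195% of 7190 genes were. Hmgb1 had the steepest slope, -0.15 ± 0.04 per unit (adjusted p = 0.192), and of the 23 fits with 1 pair left out it passed in 1, that without dexamethasone pair 10 (adjusted p = 0.0489, over a range of 0.0489 to 0.349). With the lineage score as a covariate the Hmgb1 slope on globin was -0.05 ± 0.04 (adjusted p = 0.9995). Hmgn2 had a slope of -0.23 ± 0.07 on globin, as a description, and 0.02 ± 0.06 with the lineage score as a covariate. Globin level and lineage score rose together over the 23 founders (r = 0.656). The slopes of Hmgn1, Hmgn5, Hmga1, Hmgb2 and Hmgb3 lay between -0.06 and 0.06.

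Cell cycle scores were the mean log2(CPM + 1) of 43 G1/S genes and 48 G2/M genes. Between founders, none of the 6 genes other than Hmgn2 was called on either score by edgeR, where 0.556% of 7190 genes were called on G1/S and 0.445% on G2/M. Hmgb1 had slopes of -0.42 ± 0.15 on G1/S (adjusted p = 0.250) and -0.21 ± 0.07 on G2/M (adjusted p = 0.196). Hmgn1 had -0.47 ± 0.13 (adjusted p = 0.109) and -0.22 ± 0.07 (adjusted p = 0.217). Dexamethasone pair 12 weighed on both genes. The correlation of Hmgn1 with G1/S was -0.571 over all founders and -0.171 without that pair, and with G2/M -0.376 and -0.249. For Hmgb1 it was 0.115 and -0.621 with G1/S, and -0.180 and -0.556 with G2/M. Hmgn2 fell with both scores as a description, by 1.10 ± 0.20 per unit of G1/S and 0.51 ± 0.11 per unit of G2/M. With the lineage score as a covariate these Hmgn2 slopes were -0.51 ± 0.15 and -0.15 ± 0.10, and the lineage score itself rose with G2/M (r = 0.720) and with G1/S (r = 0.531). Genes detected also rose with G1/S (r = 0.694) and G2/M (r = 0.713). By limma Hmgb3 rose with G1/S, at 1.56 ± 0.40 (adjusted p = 0.0161), and with G2/M, at 0.62 ± 0.21 (adjusted p = 0.0323). The median slopes of all genes in these fits were 0.73 and 0.37. Limma called 13% of 7190 genes on G1/S and 22.7% on G2/M, 916 and 1602 of them higher. The correlation of Hmgb3 with G1/S was 0.520 over all founders and 0.314 without dexamethasone pair 12. With G2/M it was 0.493 and 0.421.

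Sisters share their founder and treatment, and the slopes on the scores between them rest on 23 differences. Their lineage scores differed by 0.677 in the median dexamethasone pair and 0.248 in the median untreated pair, and by more than 1 in 3 dexamethasone pairs and 1 untreated pair. The widest gap was in dexamethasone pair 12, with 0.194 in cell 1 and 3.91 in cell 2, so these slopes are not free of lineage. None of the tested genes other than Hmgn2 was called on G1/S, G2/M or globin, and by edgeR 0% of 8015 genes were. At an unadjusted p under 0.05 there were 536, 572 and 255 genes, in that order. By limma 25 genes were called on G1/S, 10 on G2/M and 0 on globin, and 0 of these were HMG genes. Hmgb2, known as a gene of dividing cells, had 0.43 ± 0.31 per unit of G2/M (adjusted p = 0.811), beside a median slope of 0.32 over all genes. With the number of genes detected as a covariate its slope was -0.05 ± 0.41. Hmgn2 is only described here, since it was chosen for its small differences between sisters. Its slopes were -0.47 ± 0.24 per unit of G2/M and -0.64 ± 0.25 per unit of G1/S. The Hmgn2 slope on G1/S was -0.17 ± 0.18 without dexamethasone pair 12, and that of Hmgn1 was -0.79 ± 0.34 with the pair and -0.21 ± 0.28 without it. The Hmgn2 slope on globin between sisters was -0.35 ± 0.17, and -0.05 ± 0.12 without pair 12.

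None of the 7 tested HMG genes was called between dexamethasone and untreated founders, and 0% of 7190 genes were called by edgeR. At an unadjusted p under 0.05 there were 71 genes by edgeR, 173 by DESeq2 and 304 by limma, and DESeq2 and limma also called 0 genes. Hmgn2 averaged 9.39 ± 0.92 in dexamethasone founders and 9.09 ± 1.00 in untreated founders on the log2(CPM + 1) scale (SD, n = 13 and 10). Its log2 fold change from the summed counts was 0.06 ± 0.43 (SE). Hmgb1 averaged 9.25 ± 0.72 in dexamethasone founders and 9.21 ± 0.44 in untreated founders, with a log2 fold change of 0.20 ± 0.25. The other log2 fold changes were 0.41 ± 0.45 for Hmgb3, 0.19 ± 0.33 for Hmga1, 0.12 ± 0.27 for Hmgn1, -0.04 ± 0.77 for Hmgn5 and -0.16 ± 0.27 for Hmgb2, and each of the 7 had an adjusted p of 0.9999. These errors leave room for changes of the size of 1 SE or more in either direction, so they do not show equal levels.

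Some fold changes had opposite signs in the plate column sets, each of which holds both treatments, and the difference between the sets was not tested. In columns 1 to 4 Hmgn2 was at 0.78 ± 0.40, Hmgb1 at 0.50 ± 0.23 and Hmgb2 at -0.57 ± 0.22 on the log2 scale. In columns 5 to 7 Hmgn2 was at -0.25 ± 0.57, Hmgb1 at -0.03 ± 0.41 and Hmgb2 at 0.36 ± 0.57, with the sign turned in all 3 and adjusted p from 0.999 to 1 in both sets. Myeloid-marked libraries were in 5 of 13 dexamethasone pairs and 3 of 10 untreated pairs. Without those pairs Hmgn2 was at 0.52 ± 0.34 and Hmgb1 at 0.30 ± 0.24, with adjusted p of 0.9998.

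**Figure D5:**
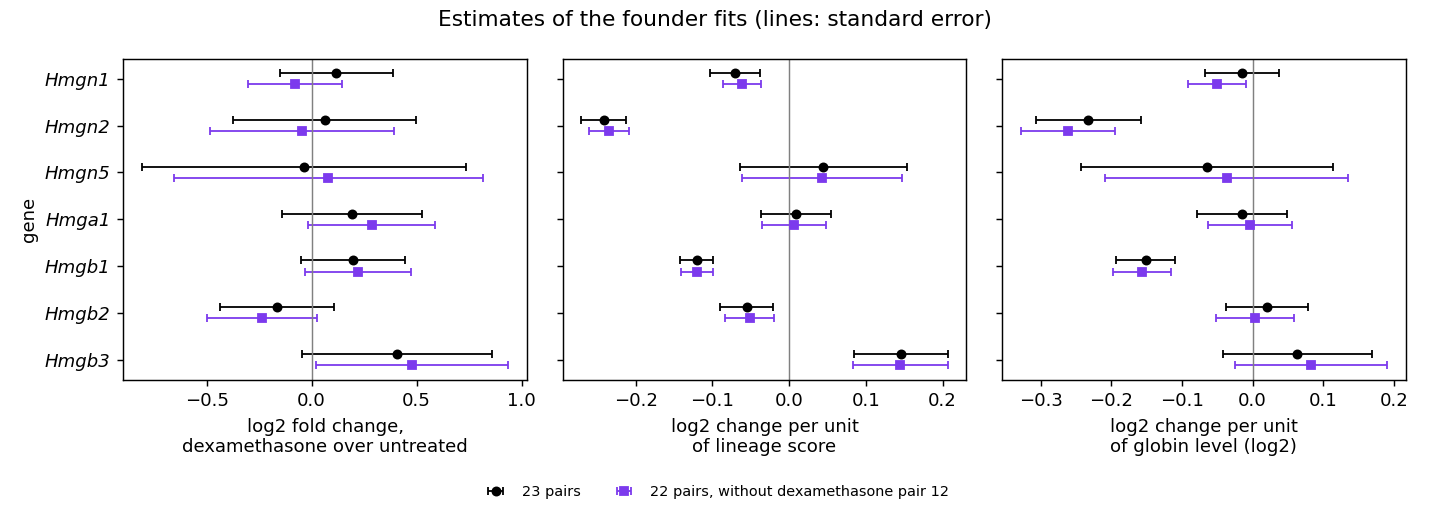
Estimates with standard errors for the 7 tested genes, for 23 pairs (black circles) and without dexamethasone pair 12 (purple squares), as the log2 fold change of dexamethasone over untreated, the slope on the lineage score and the slope on the globin level. The fold changes of dexamethasone all lie within about 1 standard error of 0, and on the lineage score Hmgn2 at -0.24 and Hmgb1 at -0.12 lie farthest below 0.

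A list of 36 other genes of HMG-box proteins and nucleosome architecture was read beside the group, of which 26 were tested between founders. With dexamethasone 0 of 26 were called, 12 higher and 14 lower in sign, with a median log2 fold change of -0.05 beside 0.02 over all genes. The 4 with the smallest p were Bbx at 3.15 ± 1.47, Anp32a at -1.48 ± 0.88, Smarce1, a subunit of the BAF remodelling complex, at 1.00 ± 0.64, and Cbx3, which encodes HP1 gamma, at -0.60 ± 0.39, each with an adjusted p of 0.9999. On the lineage score 1 of 26 was called, a share near the 3.55% of all 7190 genes. It was Cbx5, which encodes the heterochromatin protein HP1 alpha, which rose by 0.16 ± 0.04 per unit (adjusted p = 0.0361). Npm1, the nucleolar protein nucleophosmin, was at 0.05 ± 0.02 (adjusted p = 0.227) and Set, a histone chaperone, at -0.09 ± 0.03 (adjusted p = 0.160), and these 2 were the genes, of 27 of the list tested, that edgeR called for founder terms at once, where 3.38% of 8015 genes were called. Signs on the lineage score were even, 13 positive and 13 negative, with a median of 0.01.

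Genes whose founder levels were most like those of Hmgn2, by Pearson's r over 23 founders among 7118 genes, were Kdelr2 at 0.797, Myl6 at 0.795, Limd2 at 0.790, Mpo at 0.781 and Ctsg at 0.780. Mpo and Ctsg encode granule enzymes and belong to the myeloid list behind the lineage score. Among the genes whose sister differences were most like those of Hmgb2 were Rps6 at 0.909, Tcp1 at 0.866, Tbc1d13 at 0.852 and Snrpb at 0.829. Without dexamethasone pair 12, where Hmgb2 differed 37.7-fold between sisters, these values were 0.666 for Rps6, 0.519 for Tcp1, 0.784 for Tbc1d13 and 0.417 for Snrpb.

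HMG genes have many near-identical copies, and reads could be split between them. Over annotated transcripts, the share of 50-base stretches found in another gene was 55.0% for Hmga1, 25.4% for Hmgn2, 25.0% for Hmgb3, 22.7% for Hmgb1, 18.7% for Hmgb2, 18.6% for Hmgn5, 9.82% for Hmgn3 and 4.33% for Hmgn1. For Hmgb1, 2096 counts were credited to 13 named copies, 2.47% of the counts of Hmgb1 and these copies. By its share of common stretches, the level of Hmga1 is the least certain of the group. Related genes outside the group were Hmga2, with 2078 counts over 23 libraries, and Hmgb4, with 0 counts.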

How the data were processed

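Read counts per gene were used as deposited, unnormalized, in 1 table for dexamethasone cells and 1 for untreated cells, with 1 column per cell. STAR 2.4, featureCounts and GRCm38 are named in the submitters' processing notes. Settings for strand and shared reads are not stated in the labels, and reads of genes with copies or of overlapping genes may be split. No library was identical to another, and 0 columns were unused. The 8 genes, the lists and the limit of 100000 counts were chosen with earlier results of these data known.

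Counts of both sisters were summed per founder, and treatment and slopes on scores (adjusted for treatment) were tested with edgeR 4.0.16 (TMM, quasi-likelihood, Benjamini-Hochberg over all genes that passed filterByExpr). Slopes between sisters used 1 term per founder and kept genes that reached 5 counts in 10 or more libraries. A gene was called at an adjusted p under 0.05. The scores come from the same libraries as the genes tested, so library composition is shared. Each library's level is log2(CPM + 1). Alternatives used limma 3.58.1 (limma-trend on founder means of log2 values), DESeq2 1.42.0, other filters, scaling and covariates, and left-out pairs. A library was called myeloid-marked with at least 3 of 19 markers at 10 CPM. Named genes were the 8 genes and, by rule, the 5 most like Hmgn2 across founders and the 5 most like Hmgb2 between sisters, and, of the 36 architecture genes, those called in a fit and the 4 with the smallest p for dexamethasone. Of the genes this rule names and of the copies, 1 each is not reported here. The fits were tried on simulated counts with 1 dispersion for all genes and no founder term, which is simpler than these paired cells. Recovery was 100% for a treatment change of 2 and 100% for a lineage slope of 0.3, on the log2 scale. For a G2/M slope of 1.5 between sisters it was 71%. In these 3 fits 6, 8 and 2 unchanged genes were called. Other sizes were not simulated. Plate columns come from the labels, and only column 6 holds both treatments, so single columns and treatment cannot be told apart. Equal pair numbers did not pair founders across treatments. Gene positions and exon lengths come from GENCODE mouse release M21 on GRCm38.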

Additional observations from a re-analysis of the deposited data

Results flagged for a closer look

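Among the 10 untreated founders, pair 9 stood far above the others for Hmgn3, with a mean log2(CPM + 1) of 3.735 that came from 1 of its sisters, at 176 CPM beside 0 counts in the other. Untreated pair 10 stood far below the others for Hmgb3, at 0.986, with both sisters low. Both pairs held myeloid-marked libraries. The gap to the next founder took 0.926 and 0.712 of the range of the group, where 0.466 is the limit for 10 founders. For normally distributed values chance passes that limit in about 1 of 20 groups, while 8 groups were examined. The other untreated founders had Hmgn3 at or near 0, so that rate does not apply to Hmgn3.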

How the results depend on the processing

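The call of Hmgb1 on the lineage score held with other scaling, depth or plate covariates, all pairs and each pair left out. The number of called genes other than Hmgn2 was 0 without pairs with a myeloid-marked library, 1 by limma (Hmgb3 in place of Hmgb1) and 2 by limma without dexamethasone pair 12, and the cause was not tested. By limma 1 gene, Hmgb3, was called on G1/S and 1 on G2/M. On the globin level the number ran from 0 to 1 with each pair left out. For founder terms, the contrast behind the choice of genes and so only described, the calls with Hmgn2 included were 3 (Hmgn1, Hmgn2 and Hmgb3), 2 by limma and 2 without dexamethasone pair 12 (Hmgn2 and Hmgb3 in both), and 0 without pairs with a myeloid-marked library, beside 3.38% of 8015 genes. Genes called on the lineage score numbered 255, but 1288 by limma, 0 without pairs with a myeloid-marked library, and 161 without untreated pair 10. On globin 14 were called, 132 by limma, 0 without the myeloid-marked pairs and 4 to 30 with each pair left out. On G1/S 40 were called, 937 by limma, 25 without pair 12, 15 with the lineage covariate, and 0 with the plate covariate or without the myeloid-marked pairs. On G2/M 32 were called, 1631 by limma, 20 with total count as a covariate, 14 without pair 12, 3 with all pairs, and 0 with the lineage covariate or without the myeloid-marked pairs. Founder terms gave 271 genes, 651 by limma, 145 without pair 12 and 26 without the myeloid-marked pairs, which also gave 1 gene for dexamethasone. The mean difference of Hmgn2 between founders minus that between sisters was 0.752, and 0.456 without pairs with a myeloid-marked library, 0.569 within plate column sets, 0.741 with log2(CPM + 10) and 0.753 without pair 12.

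Signs turned for estimates that passed no test or, for Hmgn2 on globin and between sisters, for described slopes. In the dexamethasone comparison, Hmgn1 was at -0.0977 with a replicate block and -0.0791 without dexamethasone pair 12, and Hmgn2 at -0.0452 without that pair. Hmgn5 was at 0.0512 with a filter of 10 counts in 5 pairs, 0.0685 with the replicate block, 0.00458 without pairs with a myeloid-marked library and 0.0797 without pair 12. Hmga1 was at -0.0279 by limma, where the median of all genes was -0.15. With each pair left out, Hmgn1 ran from -0.0791 to 0.307, Hmgn2 from -0.0452 to 0.559 and Hmgn5 from -0.19 to 0.176. On the lineage score Hmga1 was at -0.237 without pairs with a myeloid-marked library and ran from -0.0192 to 0.0339 with each pair left out, and Hmgb2 was at 0.022 by limma and 0.017 by limma without pair 12. Hmgn2 on globin was at 0.0228 with the lineage score as a covariate. Hmgb1 was at 0.107 on G1/S by limma and 0.00369 on G2/M with the lineage score as a covariate, and Hmgn1 at 0.0211 on G2/M without pairs with a myeloid-marked library. Between sisters, without those pairs, Hmgn1 was at 0.559 and Hmgn2 at 0.105 on G1/S. Hmgb2 was at -0.184 on G1/S with genes detected as a covariate, -0.224 without pair 12, and -0.0549 on G2/M with genes detected as a covariate.

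Equal pair numbers did not deviate together (correlations from -0.132 to 0.172, 2 of 10 above 0.1), and with the replicate block 0 genes were called. Limits are the single wells of unknown embryos, the plate columns that mostly hold 1 treatment, read counts without molecular identifiers, and single-cell depth. Hmgn3, with counts in few libraries, passed no filter on low counts and was in none of the main fits. Alternatives with pair 12 left out, with plate or lineage covariates, and with each pair left out for lineage were chosen after seeing the data.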

Other observations

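Most opposite to Hmgn2 across the 23 founders, and picked after their values were seen, were Nup153, a nuclear pore gene (r = -0.902), Slc16a1, a lactate transporter gene (r = -0.900), Cpox, a heme synthesis enzyme gene (r = -0.897), Grb10, a signalling adaptor gene (r = -0.877), and Usp7, a ubiquitin protease gene (r = -0.866). The points share their libraries, so depth and gene detection enter both sides. Without dexamethasone pair 12, the absolute sister differences of Hmgb1 and Hmgb2 had r = -0.444 over 22 pairs, against 0.697 with it. Absolute values do not show whether the sister with more Hmgb1 had more or less Hmgb2.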
